A study of Mus musculus with 6 samples.

Results

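The 10 genes described here belong to the ATF4 branch of the integrated stress response: Atf4, Atf5, Ddit3, Asns, Trib3, Chac1, Sesn2, Psat1, Phgdh and Slc7a11. They were taken by gene symbol from tables of 19131 genes, and all 10 were present and passed the filter on low counts. Whole skin of mouse embryos at embryonic day 17.5, on a C57BL/6N strain background, was compared between 3 Tie1 knockout libraries (Tie1ECDKO) and 3 control libraries (Tie1ECDWT) by bulk RNA-seq. TIE1 is a receptor tyrosine kinase of endothelial cells, and the series concerns its part in vessel sprouting and vein assembly. The labels explain neither the letters ECD in the titles nor which cells lost Tie1, and they do not say whether each library is a separate embryo, so the p-values measure only the spread between these libraries. The labels name no treatment in either group. In bulk tissue, fewer cells of a type and less RNA per cell cannot be told apart.

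ATF4 is a basic leucine zipper transcription factor whose synthesis is raised when cells lack amino acids, heme or protein-folding capacity. Kinases that sense these states phosphorylate the translation factor eIF2, general translation slows, and upstream reading frames in the Atf4 messenger then favour the making of ATF4 protein. Much of the control of Atf4 and Atf5 is therefore translational and is not read by transcript counts, whereas transcripts of target genes are its usual readout. ATF4 pairs with C/EBP proteins and binds composite elements in genes of amino acid synthesis, amino acid uptake and stress adaptation. In skin, keratinocytes make large amounts of protein, serine and proline feed collagen synthesis in the dermis, and the cystine carrier encoded by Slc7a11 is also used by pigment cells.

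The C/EBP-ATF response element (CARE), to which these dimers bind, is shown first for the genes that hold its core near a start site, because the largest fold changes described below fall among them. The core searched was TGATGNAA on both strands, in RefSeq windows (GRCm38.p6) that run from 250 bases before to 50 bases after an annotated start. It was present in the windows of 4 of the 10 genes and of 2.88% of the 11836 tested genes with a window. Counted by window over all genes, 3.97% of 32851 windows held it. The 10 genes were chosen as genes of the ATF4 pathway, so a larger share among them describes the list and is no test. The stretches are printed along the gene's own strand with the core in capitals, the complementary form TTNCATCA marking a core on the other strand.
Asns (chr6:7693214-7693243, minus strand): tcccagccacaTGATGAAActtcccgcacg
Trib3 (chr2:152344028-152344057, minus strand): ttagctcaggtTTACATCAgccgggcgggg
Chac1 (chr2:119351023-119351082, plus strand): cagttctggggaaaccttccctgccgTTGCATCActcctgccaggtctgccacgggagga
Slc7a11 (chr3:50443627-50443705, minus strand): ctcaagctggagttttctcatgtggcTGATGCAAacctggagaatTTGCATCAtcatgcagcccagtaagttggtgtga
The core began 23 bases before the start in Asns and 193 bases before it in Chac1. Slc7a11 held 2 cores in opposite orientation, 66 and 47 bases before the start, and the core of Trib3 lay after the start, beginning at base 15. The Slc7a11 window belongs to a start inside the annotated gene, whose span reaches further upstream. The Asns and Trib3 stretches also lie in exons of those genes in GENCODE M21. Atf4, Atf5, Ddit3, Sesn2, Psat1 and Phgdh showed no such letters in their windows, which says nothing of elements elsewhere or of other spellings. A second motif, the antioxidant response element core TGACNNNGC, was searched because Slc7a11 is also a target of the oxidative stress factor NRF2. It was found in the windows of Asns, Sesn2 and Phgdh, not in that of Slc7a11. Of the tested genes with a window, 16.8% held it, as did 12.4% of all windows.

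The libraries held 19826856 to 20591164 estimated reads, and none was a duplicate of another, each pair differing by at least 9.95 times the sampling variance. Tie1 stood at 2.26 to 4.33 CPM (counts scaled to a fixed library size) in the knockout and 50.7 to 60.0 CPM in the control libraries, which fits their labels; the deleted part cannot be located from 1 value per gene. Knockout 1 and control 1 stood apart from the other libraries of their groups in skin composition, with a hair follicle score (mean log2 CPM of 8 follicle genes) of 2.45 and 2.95 against 4.88 to 5.76. Skin markers were abundant in every library, with sums of 19531 to 36406 CPM for 7 keratinocyte genes and 33298 to 39338 CPM for 6 dermal fibroblast genes. In edgeR's quasi-likelihood test, 24 of the 15035 genes tested had an adjusted p under 0.05.

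None of the 10 ATF4 pathway genes passed this test, whose calls made up 0.16% of all genes tested, and none was called by DESeq2, which called 1.4% of all genes, or by limma-voom. An unadjusted p under 0.05 was reached by 2 of the 10, Chac1 and Slc7a11, both higher in the knockout, against 4.08% of all genes in that direction, and by none in the lower direction (3.35% of all genes). Asns, Chac1 and Slc7a11 had every knockout library above every control library, against 7.03% of all genes, and none of the 10 was separated in the other direction (6.78% of all genes). Of the 10 fold changes, 9 were above 0, as were 51.2% of those of all genes, with a median log2 fold change of 0.15 beside 0.0038 over all genes. These counts describe a list of genes chosen with earlier results of these data known. The values also come from the same 6 libraries and may go together, so the counts are no test of the list. A gene that missed the threshold is not shown to have equal levels in both groups, and the interval given with each gene bounds its difference.

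**Figure D1:**
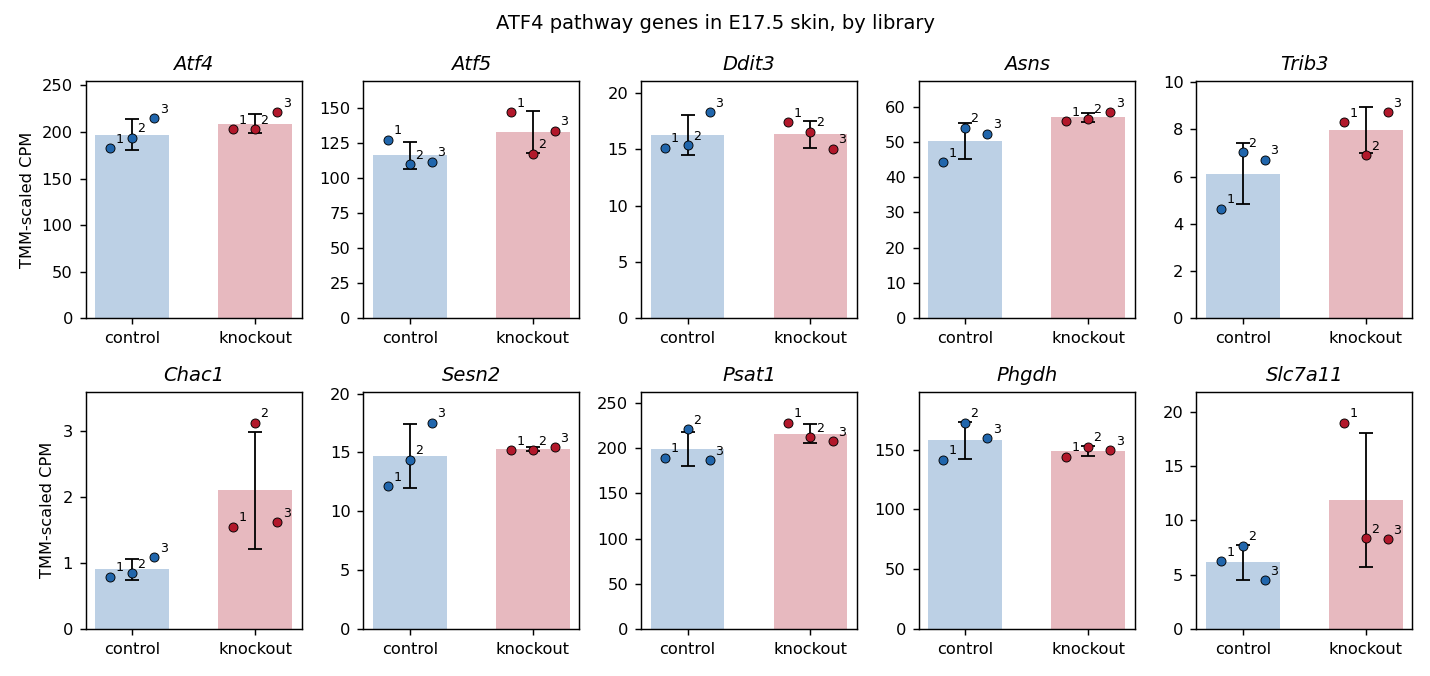
Level of each of the 10 genes in each library (points, numbered by replicate), in TMM-scaled CPM on a linear axis from 0, with the mean (bar) and SD (line) of 3 control and 3 knockout libraries. Chac1 and Slc7a11 show the widest gaps between the groups, each with 1 knockout library (2 and 1) far above the others. The points of Atf4, Atf5, Ddit3, Trib3, Sesn2, Psat1 and Phgdh overlap between the groups.

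None of the transcription factor genes Atf4, Atf5 and Ddit3 differed beyond the spread between libraries. Atf4 itself (chromosome 15, 80255184 to 80257545) stood at 203, 203 and 222 CPM in knockout 1, 2 and 3 and at 183, 194 and 215 CPM in control 1, 2 and 3. The groups overlapped, since control 3 lay above 2 of the knockout libraries. The means were 209 ± 10.7 and 197 ± 16.4 CPM (SD, n = 3 each), a log2 fold change of 0.085 (standard error 0.081, edgeR adjusted p = 0.840). The 95% interval of the fold ran from 0.931 to 1.21.

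Atf5 (chromosome 7, 44812256 to 44816658) encodes a related leucine zipper factor that is also controlled by translation and acts in mitochondrial stress. It stood at 147, 117 and 134 CPM in the knockout and 127, 110 and 111 CPM in the control libraries. Control 1 was above knockout 2, so the groups overlapped. Its log2 fold change was 0.19 (standard error 0.10, edgeR adjusted p = 0.717), and the interval of the fold was 0.970 to 1.34. Of its 1993 merged exon bases, 82 are shared with exons of Nup62 and Il4i1 on the opposite strand. The sources used here do not give the strand setting of the counting. Reads from those bases cannot then be assigned to 1 gene.

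Ddit3 (chromosome 10, 127290793 to 127296291) encodes CHOP, a factor linked to cell death under prolonged stress. Its levels were 17.4, 16.6 and 15.1 CPM in the knockout and 15.1, 15.4 and 18.3 CPM in the control libraries, with the highest and a near-lowest value both in the control group. The means, 16.3 ± 1.19 and 16.3 ± 1.77 CPM (SD, n = 3 each), were closer than those of any other member, with a log2 fold change of 0.0067 (standard error 0.11, edgeR adjusted p = 0.995, 95% interval on the log2 scale −0.25 to 0.27). Its sign depended on the processing, since it turned negative in 7 of 18 alternative settings. Exons of the methionyl-tRNA synthetase gene Mars overlap 68 of its 1713 exon bases on the other strand.

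Trib3 (chromosome 2, 152337425 to 152344060) encodes a pseudokinase that is induced by ATF4 and CHOP and feeds back on them. It stood at 8.30, 6.89 and 8.73 CPM in the knockout and 4.64, 7.03 and 6.71 CPM in the control libraries. Control 1 was the lowest of the 6, and control 2 lay just above knockout 2. This gave a log2 fold change of 0.38 (standard error 0.19, edgeR adjusted p = 0.706, fold interval 0.956 to 1.77). Without control 1 it was 0.21, and without knockout 1 and control 1 together 0.19.

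Chac1 (chromosome 2, 119351242 to 119354326), which encodes an enzyme that breaks down glutathione and is a late target in this pathway, had the largest fold change of the 10. It had 30, 63 and 33 estimated reads in the knockout libraries and 16, 17 and 22 in the control libraries. In CPM these were 1.55, 3.12 and 1.62 against 0.789, 0.842 and 1.09. Every knockout library lay above every control library, and knockout 2 was far above the other 5. The log2 fold change was 1.21 (standard error 0.35, unadjusted p = 0.0102, edgeR adjusted p = 0.430), a 2.31-fold difference with an interval of 1.30 to 4.09. Over 18 alternative settings the adjusted p ranged from 0.203 to 0.888, and the log2 fold change was 0.80 without knockout 2, which thus carries much of the size. The summed reads, 126 against 55, gave a ratio of 2.29 with an exact binomial 95% interval of 1.66 to 3.20, which covers counting error only, since the libraries were amplified by PCR and the labels mention no molecular identifiers.

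Sesn2 (chromosome 4, 132492804 to 132510456) encodes a leucine-binding inhibitor of mTORC1 signalling that is a target of both ATF4 and p53. The knockout libraries stood close together, at 15.2, 15.2 and 15.5 CPM, inside the control range of 12.1, 14.4 and 17.5 CPM. For Sesn2 the log2 fold change was 0.058 (standard error 0.14, edgeR adjusted p = 0.942, fold interval 0.831 to 1.30) and was −0.062 without control 1.

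The amino acid enzymes were abundant and close between the groups. Asns (chromosome 6, 7675165 to 7693209), which encodes asparagine synthetase and is among the best known ATF4 targets, stood at 55.9, 56.6 and 58.5 CPM in the knockout and 44.3, 54.1 and 52.3 CPM in the control libraries. All 3 knockout values lay above all 3 control values, the gap between the groups being that from 54.1 to 55.9 CPM. Asns had a log2 fold difference of 0.18 (standard error 0.087, edgeR adjusted p = 0.689, fold interval 0.986 to 1.31). The low value of control 1 sets much of it: without control 1 the log2 fold change was 0.10 (edgeR adjusted p = 0.712), although the libraries still did not overlap.

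Phgdh and Psat1 encode successive enzymes of serine synthesis from a glycolytic intermediate. Phgdh (chromosome 3, 98313171 to 98339969) was the 1 member with a lower mean in the knockout, at 144, 152 and 150 CPM against 141, 173 and 160 CPM. The lowest of the 6 values, like the highest, was a control library, so the groups overlapped. Its log2 fold change was −0.087 (standard error 0.083, edgeR adjusted p = 0.843, fold interval 0.823 to 1.08).

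Psat1 (chromosome 19, 15905123 to 15925059) stood at 228, 212 and 208 CPM in the knockout and 189, 221 and 187 CPM in the control libraries. Control 2 was above 2 of the knockout libraries. Psat1 thus had a log2 fold change of 0.12 (standard error 0.085, edgeR adjusted p = 0.799, fold interval 0.945 to 1.25), so for these enzymes of one route the signs differed and neither was called. Whether the pair differ from each other was not tested.

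Slc7a11 (chromosome 3, 50364936 to 50499087) encodes the cystine-glutamate exchanger xCT, which supplies cystine for glutathione. It stood at 19.0, 8.38 and 8.29 CPM in the knockout and 6.27, 7.68 and 4.49 CPM in the control libraries. The groups did not overlap, but knockout 1 was more than double any other library and the remaining knockout values lay just above control 2. The log2 fold change was 0.95 (standard error 0.39, unadjusted p = 0.0462, edgeR adjusted p = 0.663), a 1.93-fold difference with an interval of 1.02 to 3.68. Without knockout 1 it was 0.44 (edgeR adjusted p = 0.760). Its estimated reads were not whole numbers, so some were shared by the authors' model with other sequences.

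**Figure D2:**
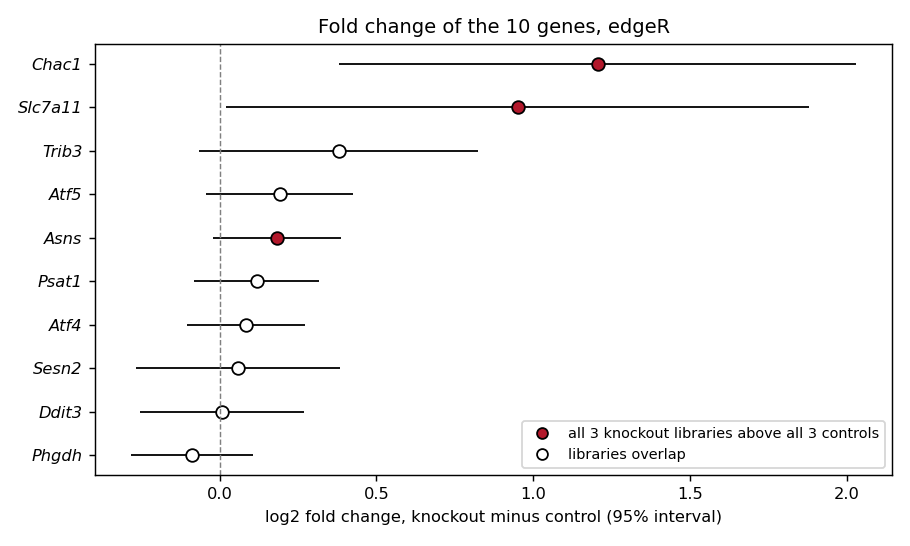
Log2 fold change (knockout minus control) of the 10 genes with 95% intervals from the edgeR fit, ordered by size. Filled points mark genes with all 3 knockout libraries above all 3 control libraries. The intervals of Chac1 and Slc7a11 are wide and lie above 0 before adjustment for the number of genes tested, and the other 8 include 0.

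The printed cores can be set beside these values. Asns, Chac1 and Slc7a11, the 3 members whose libraries did not overlap, were among the 4 with a CARE core in the window, and the fourth, Trib3, had the third largest fold change of the 10. Among all tested genes with a window, 341 held the core, and the knockout libraries of 8.50% of these lay wholly above the controls, while those of the same share, 8.50%, lay wholly below. Among the 11495 without it the shares were 6.90% and 6.86%. The median log2 fold change was 0.023 with and 0.0028 without the core. The match among the 10 was seen after their values were known and is a description.

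Control 1 had the lowest level of the 6 libraries in 6 of the 10 genes (Atf4, Asns, Trib3, Chac1, Sesn2 and Phgdh). The same library had the lowest summed level of 7 keratinocyte markers, 19531 CPM against 25551 to 36406 CPM in the others. It also had the highest sum of 6 erythroid genes, 16060 CPM against 6660 to 8938 CPM, and of 6 mast cell genes, 2902 CPM against 1420 to 2285 CPM. No gene of these 3 lists was at 0 over the 6 libraries. With control 1 left out the fold changes of Atf4, Asns and Trib3 were 0.033, 0.10 and 0.21 on the log2 scale, in place of 0.085, 0.18 and 0.38, whereas that of Chac1 was 1.12. For Slc7a11 the library in question is knockout 1, which had the lowest sums of 8 hair follicle genes (387 CPM, others 445 to 990) and of 6 pigment cell genes (89.2 CPM, others 123 to 277). The part of tissue composition in the Slc7a11 value of knockout 1 was not tested. The mast cell list as a whole was lower in the knockout libraries (1420 to 1446 CPM against 2188 to 2902 CPM) and the macrophage list higher (408 to 475 against 283 to 389 CPM). The sum of 6 adipocyte genes was lower too, at 105 to 137 CPM against 157 to 227 CPM. Most of this sum was Fabp4, at 102 to 137 CPM against 149 to 193 CPM, so it mainly gives the level of 1 gene. Of the 6 adipocyte genes, 3 were tested, all with every knockout library below every control library (6.78% of all genes). Their median log2 fold change was −3.22. Plin1, which encodes a lipid droplet protein, was called (edgeR adjusted p = 0.0353), as were 0.16% of all genes in either direction. The part of these 3 cell types in the values of the 10 genes was not tested either. A score of posterior Hox genes (mean log2 CPM), whose expression follows body position, was 2.54, 2.88 and 2.91 for knockout 1, 2 and 3 against 2.68, 1.81 and 1.27 for control 1, 2 and 3. Control 1 was the only control within the knockout range of this score, so a fit with the score leans on that library. For the other controls score and genotype cannot be told apart. With the score as a covariate the log2 fold changes of Atf4, Asns, Trib3 and Sesn2 were 0.20, 0.33, 0.73 and 0.36. Among the 10 there was still no edgeR adjusted p under 0.05. The members with an unadjusted p under 0.05 were then Asns, Sesn2 and Trib3, and no longer Chac1 and Slc7a11.

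Per kilobase of merged GENCODE exons, the control levels fell in a wide range. Atf4 was highest at 83.6 ± 6.97 CPM per kilobase (SD, n = 3), followed by Phgdh at 63.5 ± 6.29, Atf5 at 58.3 ± 4.87 and Psat1 at 46.8 ± 4.53. The libraries of Phgdh and Atf5 overlapped, so their order is not fixed, and it was the other way round in the knockout means, at 59.8 ± 1.73 and 66.5 ± 7.50. Asns at 18.4 ± 1.90, Ddit3 at 9.50 ± 1.04, Sesn2 at 4.22 ± 0.779 and Trib3 at 2.88 ± 0.612 followed without overlap between neighbours. Chac1 and Slc7a11 were lowest, at 0.553 ± 0.0967 and 0.441 ± 0.115, and overlapped each other. The members with the largest fold changes were thus those with the lowest levels. The value for Slc7a11 rests on 13922 merged exon bases, and would be higher if shorter transcripts were the ones expressed in skin.

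Other genes of the pathway and of neighbouring stress arms were described together from 8 lists holding 79 genes, of which 78 were tested. None passed the edgeR test, and the median log2 fold change was 0.023. An unadjusted p under 0.05 was reached by 8 in the higher and 3 in the lower direction (4.08% and 3.35% of all genes). The ATF6 and XBP1 arms of the unfolded protein response held 0 and 1 of these, NRF2 targets 1 and 0, and p53 targets 1 and 2. Every lower gene was thus of a neighbouring arm. Libraries were separated for 8 genes in each direction, against 7.03% of all genes higher and 6.78% lower. A list of upstream genes held the kinases that start the response, the phosphatase subunits that end it and subunits of the translation factors eIF2 and eIF2B. Of its 8 fold changes, 4 were above 0 (median −0.0026). Eif2ak1, the kinase that senses heme loss, stood at 54.2, 48.7 and 53.5 CPM in the knockout and 60.1, 56.6 and 57.4 CPM in the control libraries, all 3 below the controls (log2 fold change −0.15, standard error 0.069, edgeR adjusted p = 0.684). Ppp1r15a, which encodes the stress-induced subunit that reverses eIF2 phosphorylation, had a log2 fold change of 0.34 (standard error 0.16, edgeR adjusted p = 0.692).

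Of 10 further enzymes of serine, proline, sulphur amino acid and folate metabolism, 6 were above 0. None was lower at an unadjusted edgeR p under 0.05 (3.35% of all genes), and 1 was higher (4.08% of all genes). This was Cth, the enzyme that makes cysteine from cystathionine, at 8.56, 7.93 and 5.59 CPM in the knockout against 4.69, 4.51 and 4.10 CPM in the control libraries. All 3 knockout values were above the controls (log2 fold change 0.73, standard error 0.19, edgeR adjusted p = 0.328). Shmt2, the mitochondrial serine hydroxymethyltransferase next to the serine route, stood at 0.15 (standard error 0.073, edgeR adjusted p = 0.689). The 8 further transporters, of which 4 were above 0, had a median of −0.013. Slc7a5, the large neutral amino acid carrier, stood at −0.12 (standard error 0.078) and Slc7a3, a cationic carrier near 1 CPM, at 0.53 (standard error 0.32), with edgeR adjusted p = 0.776 and 0.753.

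Transfer RNA charging genes, listed with a gene of transfer RNA export, were close between the groups. Of the 13 genes of this list, 9 were above 0, and the median log2 fold change was 0.064. Cars, the cysteinyl-tRNA synthetase gene, stood at 69.8, 53.8 and 53.2 CPM in the knockout and 49.0, 45.0 and 45.5 CPM in the control libraries, again without overlap (0.34, standard error 0.12, edgeR adjusted p = 0.527). Wars, for tryptophan, was separated in the other direction (−0.15, standard error 0.069, edgeR adjusted p = 0.685).

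The list of other stress outputs had the highest median of the 8, at 0.21, with 9 of 11 tested genes above 0. In edgeR, 4 had an unadjusted p under 0.05 in the higher direction (4.08% of all genes) and 0 in the lower (3.35% of all genes). Stc2, which encodes the secreted glycoprotein stanniocalcin 2, stood at 19.1, 15.1 and 12.7 CPM in the knockout and 7.89, 5.99 and 8.84 CPM in the control libraries. The groups did not overlap, and the log2 fold change was 1.04 (standard error 0.20, edgeR adjusted p = 0.155; DESeq2 adjusted p = 0.000684, which called it). Fgf21, a hormone gene induced by amino acid shortage in liver, was also separated but barely expressed, at 0.876, 0.595 and 0.540 CPM against 0.247, 0.396 and 0.247 CPM (1.16, standard error 0.39, edgeR adjusted p = 0.530).

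Genes of neighbouring stress arms were included for comparison. Among 14 genes of the ATF6 and XBP1 arms of the unfolded protein response, 5 were above 0 and the median was −0.044. The disulphide isomerase gene Pdia4 was lower in all 3 knockout libraries, at 138, 135 and 140 CPM against 152, 155 and 148 CPM (−0.14, standard error 0.056, edgeR adjusted p = 0.631). Dnajb9, an ER co-chaperone gene, stood at 0.18 (standard error 0.078, edgeR adjusted p = 0.675).

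Of 7 NRF2 targets, which share Slc7a11's response to oxidative stress, Hmox1 differed most. This heme oxygenase gene stood at 274, 236 and 272 CPM in the knockout against 166, 124 and 110 CPM in the control libraries (0.97, standard error 0.15, edgeR adjusted p = 0.0995). DESeq2 called it (adjusted p = 1.9e-06), as did edgeR without control 1 (adjusted p = 0.0291), without knockout 1 and control 1 (adjusted p = 0.00157) and with the hair follicle score as a covariate (adjusted p = 0.0195). The other settings did not call it, with edgeR adjusted p = 0.236 and a log2 fold change of 0.68 under the posterior Hox score, 0.340 without knockout 2 and 0.408 without control 2, the highest of 18 settings. The next was Srxn1 at 0.20 (standard error 0.13, edgeR adjusted p = 0.777), and the list had a median of 0.038. Of 7 p53 targets, which share Sesn2's other regulator, 4 were above 0 and 3 below. An unadjusted edgeR p under 0.05 was reached by 1 higher and 2 lower genes (4.08% and 3.35% of all genes). The cell cycle inhibitor gene Cdkn1a stood at 0.26 (standard error 0.10) and Ccng1 at −0.21 (standard error 0.067), with edgeR adjusted p = 0.626 and 0.506.

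**Figure D3:**
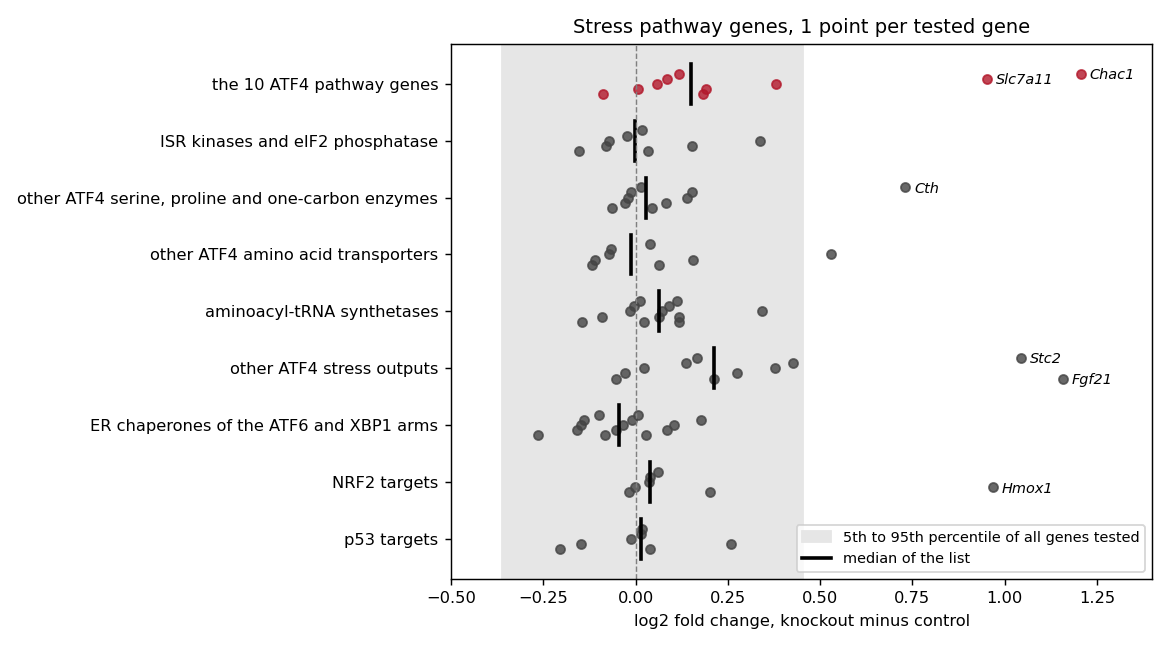
Log2 fold change (knockout minus control) of each tested gene of the 10 ATF4 pathway genes and of the 8 other lists, with the list median (black bar) and the 5th to 95th percentile range of all genes tested (grey, −0.36 to 0.45). Most points of every list lie in the grey range. Chac1, Slc7a11, Cth, Stc2, Fgf21 and Hmox1, named in the plot, lie above 0.6.

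The genes most like the 10 over the 6 libraries were found by the root mean square difference between a gene's standardised log2 CPM and the mean standardised profile of the 10. They were the predicted gene Gm46731 (0.372), Fgfbp1 (0.373), Ptpn14 (0.375) and Ttll10 (0.376). Fgfbp1, which encodes a carrier protein of fibroblast growth factors made by keratinocytes, stood at 179, 158 and 156 CPM in the knockout and 109, 139 and 147 CPM in the control libraries. Control 1 was the lowest library here as well, and none of the 4 genes passed the edgeR test, with Fgfbp1 at a log2 fold change of 0.32 (standard error 0.12, adjusted p = 0.587). Such likeness over 6 libraries also reflects what the libraries share, such as tissue composition.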

How the data were processed

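The deposited tables hold, per the file headers, 1 read count per gene and library, an estimated count that the authors did not normalize. HISAT2 2.0.4, Bowtie2 2.2.5, RSEM 1.2.12 and build GRCm38.p6 are named, with no role or order, in the submitters' processing notes. Between 31.0 and 31.9% of genes in a library had a value more than 0.001 from a whole number. Groups and replicate numbers came from the labels. Estimated counts were rounded, filtered with filterByExpr (minimum count 10), scaled by TMM and compared with the robust quasi-likelihood test of edgeR 4.0.16 (R 4.3.3). Genotype was the sole factor, and p-values were adjusted by Benjamini-Hochberg across the 15035 genes tested, with a threshold of 0.05. The procedure was tested on simulated data. CPM are TMM-scaled. The SE is the absolute log2 fold change over the square root of F, and 95% intervals use the t distribution with the fit's degrees of freedom. A floor of 3 reads corresponds to 0.147 to 0.155 CPM.

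The 10 genes and all lists were chosen with earlier results of these data known. Named beside the 10 were Tie1, the 2 genes of smallest p in each list and the 4 genes of most similar profile. Gene positions, promoter windows (one or more for 11836 of the tested genes) and their sequences are from RefSeq on GRCm38.p6, and exon lengths from GENCODE M21 on the same assembly. Alternatives were other scalings and filters, DESeq2 1.42.0, limma-voom (limma 3.58.1), the replicate number as a block, a non-robust fit, hair follicle and posterior Hox scores as covariates, another prior count, and leaving out libraries.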

Additional observations from a re-analysis of the deposited data

How the results depend on the processing

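In none of the 17 alternative settings that can change a call was any of the 10 genes called at an adjusted p under 0.05, by edgeR, DESeq2 or limma-voom. The number of all genes called was 24 and moved to 38 with no filter on low counts, 210 with DESeq2, 15 with limma-voom, 118 with the hair follicle score, 3 with the posterior Hox score, 1 to 11 with 1 library left out and 139 without knockout 1 and control 1. The cause of these moves was not tested, except that fewer libraries entered the last fits. With the replicate number as a block it was 52. Same-numbered libraries deviated together by correlations of 0.41, 0.043 and 0.27 over genes. The same-numbered control was the best match for knockout 1 and knockout 3, whereas knockout 2 correlated best with control 3 (0.18). The labels give only the number, and whether same-numbered libraries share more than that was not tested. The block called none of the 10. The count of the 10 with separated libraries was 3, ranged from 3 to 5 with 1 library left out (20.4 to 27.9% of all genes, 13.8% with all 6) and was 5 without knockout 1 and control 1 (42.1% of all genes), fewer libraries making separation easier. The 5 without control 1, with or without knockout 1, include Phgdh, separated lower. An unadjusted p under 0.05 was reached by Chac1 in every setting but the posterior Hox score. Slc7a11 did not reach it with limma-voom (unadjusted p = 0.0601), with no filter or with the posterior Hox score. Nor did Slc7a11 reach it without knockout 1, control 1, control 2 or control 3, or without knockout 1 and control 1 together. Atf5, Asns, Trib3, Sesn2 and Psat1 reached it in some settings. Fold changes kept their sign in every setting for Atf4, Atf5, Asns, Trib3, Chac1, Psat1 and Slc7a11. The log2 fold change of Ddit3 turned to −0.025 with upper-quartile scaling, −0.00035 with no filter, −0.042 to −0.0051 without knockout 1, knockout 2, control 1 or control 2 (−0.041, −0.0051, −0.042 and −0.042; 0.094 at most, without control 3) and −0.090 without knockout 1 and control 1. That of Sesn2 turned to −0.062 without control 1 (0.20 at most with 1 library left out, without control 3) and −0.058 without both, and that of Phgdh to 0.017 with the posterior Hox score. Depth limits Chac1, with 16 to 63 reads a library.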
